A study of Caenorhabditis elegans with 12 samples.

Results

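The transcriptional response to heat shock was measured in affl-2 mutants of the nematode Caenorhabditis elegans. Of the 12 RNA-seq libraries of the study, 6 carry this comparison: 3 from affl-2(sy975) animals (strain PS8060) heated at 33 °C for 30 min and 3 from affl-2(sy975) animals kept at 20 °C for the same 30 min. They were taken by their labelled genotype and treatment, and every gene was used. The corresponding 3 heated and 3 unheated libraries of the wild type N2 were used to see where the mutant response differs. All groups were whole L4 larvae, 250 of them picked onto a plate of OP50 bacteria, with the plate sealed in parafilm during the treatment. The labels do not give the lesion of sy975, name no second allele or rescued line, and are silent on whether each replicate was grown apart, so the spread behind every p-value is that of these libraries and may be technical. Because whole animals were used, fewer cells of a type and less RNA per cell cannot be told apart.

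Heat shock unfolds proteins and activates the heat shock factor HSF-1, which binds DNA upstream of chaperone genes and drives their transcription. The inducible genes encode small heat shock proteins, which hold unfolded proteins in soluble form, and HSP70, HSP110, HSP40 and HSP90 chaperones, which refold them or hand them on for degradation. AFFL-2 is a nematode member of the AF4/FMR2 family, whose mammalian members are scaffolds of complexes that release paused RNA polymerase II into elongation.

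The total of estimated counts lay between 19780087 and 22238337 in the heated affl-2 libraries and between 17973106 and 19280104 in the unheated ones, and 18234 to 18348 genes were detected in the heated and 17776 to 17896 in the unheated libraries. Levels are CPM, a gene's counts relative to the total of its library after TMM scaling, unless TPM, the same kind of share corrected for transcript length, is named. Changes are log2, heated minus unheated, with their standard error, and adjusted p-values are those of edgeR's quasi-likelihood test with Benjamini-Hochberg adjustment over 15386 genes. A gene passed at an adjusted p under 0.05, and “rose” and “fell” are used of such genes only. affl-2 mRNA itself stood at 19.2, 16.3 and 17.3 CPM in heated and 15.2, 15.4 and 19.6 CPM in unheated mutants, which overlap (log2 change 0.07 ± 0.13, adjusted p = 0.734). hsf-1 mRNA was at 53, 64 and 53.1 CPM in heated and 65.4, 53.3 and 61.4 CPM in unheated mutants, again with overlap (log2 change −0.08 ± 0.12, adjusted p = 0.667). affl-1, a paralogue of affl-2 that begins 83 bases after it on the same strand of chromosome III, had 91 reads over the 3 heated libraries and 2 reads over the 3 unheated ones. That is a ratio of 44.6 with a 95% exact interval of 12 to 374, which covers counting error only.

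Affl-2 mutants retained a broad response to heat. Of 15386 genes tested, 3300 (21.4%) changed, 1637 (10.6%) upwards and 1663 (10.8%) downwards. By fitted value 109 genes rose and 8 fell by more than 3 on the log2 scale. They include genes at 0 counts in one of the groups, whose fitted changes are no bound. The median change was 0.65 among the risen and −0.82 among the fallen genes. Scaling by library size alone moves the median of all genes by −0.14 and the split to 930 risen and 2631 fallen genes, and a fit of only the 6 affl-2 libraries gave 846 risen and 1485 fallen genes. With TMM, 477 genes (3.1%) rose and 596 (3.87%) fell by more than 2-fold.

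**Figure D1:**
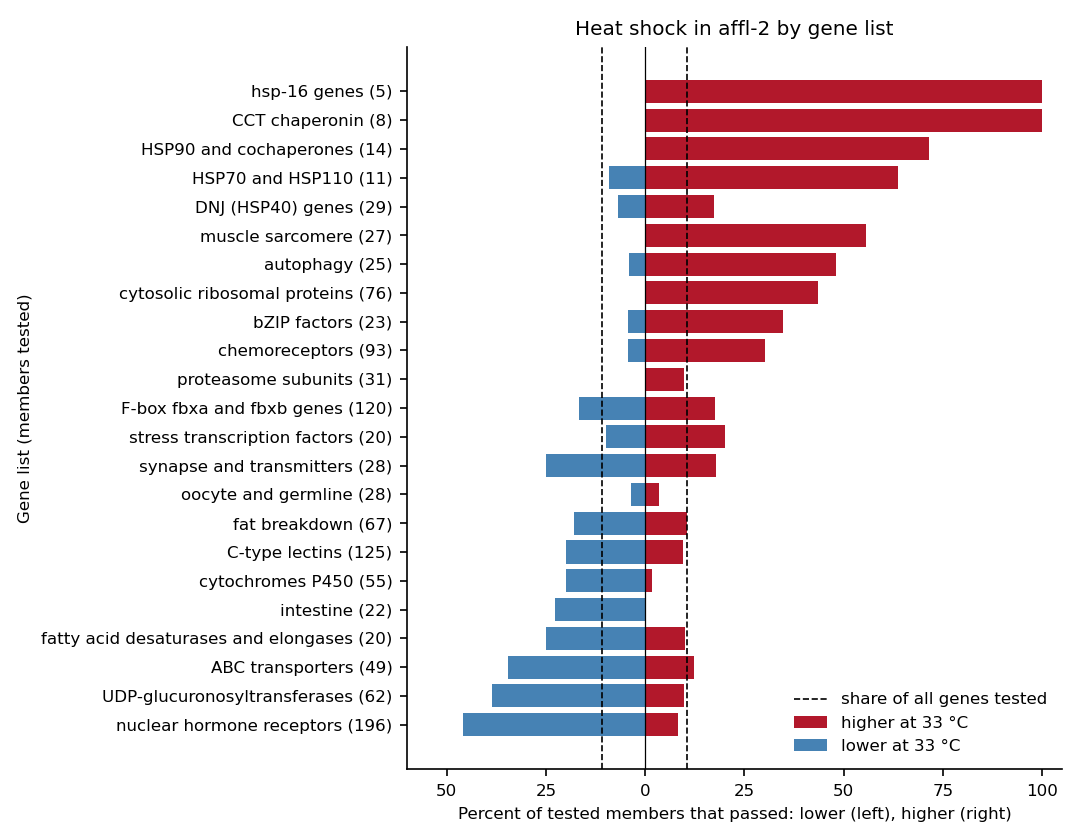
Percent of the tested members of each gene list that rose (red, right of 0) or fell (blue, left of 0) with heat in affl-2 mutants; the number of members tested is in brackets and dashed lines mark the share among all genes tested, 10.6% and 10.8%. The hsp-16, CCT, HSP90 and HSP70 lists extend furthest to the right and nuclear hormone receptors furthest to the left, at 45.9% lower.

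Small heat shock proteins of the HSP-16 family held the 4 highest log2 changes among genes that passed with an average of at least 2 CPM. hsp-16.41 stood at 182, 129.8 and 175 CPM in heated mutants, against 0.243, 0.758 and 0.383 CPM in unheated ones (log2 change 8.44 ± 0.71, adjusted p = 3.88e-05). hsp-16.11 reached 864, 599.9 and 886 CPM with heat, against 1.6, 3.17 and 3.39 CPM without (log2 change 8.16 ± 0.91, adjusted p = 0.000316). Every heated library lay far above every unheated library for both genes. hsp-16.2 was at 132, 101.76 and 136 CPM in heated and 0.146, 0.852 and 0.813 CPM in unheated mutants (log2 change 7.65 ± 0.73, adjusted p = 9.5e-05). hsp-16.48 and hsp-16.49 are near-identical copies whose reads were divided equally, so each carries the same 258, 189 and 257 CPM with heat and 0.582, 1.42 and 0.956 CPM without, and neither can be read apart from the other. No read was assigned to hsp-16.1, the near-identical partner of hsp-16.11, in any library. In all 3 heated libraries the order per transcript length was hsp-16.11, then hsp-16.48 with hsp-16.49, then hsp-16.41 and hsp-16.2, with means of 3737, 1492 for each copy, 403 and 356 TPM.

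The hsp-16 genes lie at 2 places on chromosome V (build WBcel235), hsp-16.2 and hsp-16.41 facing away from each other with 220 bases between them (V:1804334-1804957, minus strand, and V:1805178-1805875, plus strand), and hsp-16.48, hsp-16.49 and hsp-16.11 within V:9088131-9090604. Summed, because copies share reads, they came to 1693, 1209 and 1711 CPM in heated mutants, against 3.15, 7.62 and 6.5 CPM in unheated mutants (log2 change 8.06 ± 0.96, adjusted p = 0.000441). Heated N2 animals reached a sum of 6547, 6077 and 7269.9 CPM and unheated ones 9.93, 3.9 and 48.7 CPM. Heated mutants thus held less hsp-16 mRNA than heated N2 in every library, a difference in level that was not tested as such. The interaction, the change with heat in affl-2 less the change in N2, did not pass for any of the 5 genes tested. Its values lay between −1.27 ± 1.08 for hsp-16.2 and 0.06 ± 1.00 for hsp-16.11, with standard errors near 1. The unheated levels behind them were low, and in N2 they also spread widely between libraries, with sums of 9.93, 3.9 and 48.7 CPM. The 8 other small heat shock protein genes tested, which include hsp-12.1, hsp-17, hsp-25, hsp-43, sip-1 and ZK1128.7, did not pass in the mutant, with changes from −0.17 (sip-1) to 0.23 (ZK1128.7). None of them had an unadjusted p under 0.05 in edgeR's test, and DESeq2's Wald test called none.

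Among HSP70 and HSP110 genes 7 of 11 rose (63.6%, against 10.6% of all genes) and 1 fell. The HSP70 proteins fold and refold polypeptides in cycles of ATP hydrolysis. The inducible cytosolic pair F44E5.4 and F44E5.5, which lie back to back on chromosome II with 350 bases between them, took up the most reads of the inducible family members. F44E5.5 stood at 2002, 1599.9 and 2089 CPM in heated mutants, against 11.7, 11.2 and 9.61 CPM in unheated ones (log2 change 7.45 ± 0.55, adjusted p = 9.56e-06). F44E5.4 was at 1939, 1414 and 1984 CPM with heat and at 5.43, 25.4 and 16.8 CPM without, its unheated libraries spreading more widely (log2 change 6.81 ± 1.05, adjusted p = 0.00195). hsp-70, another inducible gene, reached 111, 102.24 and 117 CPM in heated mutants, against 0.873, 2.65 and 1.91 CPM in unheated ones (log2 change 5.92 ± 0.42, adjusted p = 3.18e-06). Per transcript length its 52.8 TPM in heated mutants was well below the 890.3 TPM of F44E5.5 and the 831 TPM of F44E5.4. The hsp-16 genes, the F44E5 pair and hsp-70 together held 0.581, 0.453 and 0.593% of the counts of the heated affl-2 libraries, against 0.00243, 0.00539 and 0.00378% of the unheated affl-2 libraries. In heated N2 they held 2.12, 2.10 and 2.35%.

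hsp-110, the nucleotide exchange factor that works with HSP70, rose about 4-fold, to 1709, 1770.1 and 1708 CPM in heated mutants, against 429.7, 368 and 445 CPM in unheated ones (log2 change 2.06 ± 0.10, adjusted p = 1.46e-08). Changes of the constitutive family members were smaller. The constitutive cytosolic hsp-1 had 2820.1, 2864 and 2728 CPM with heat and 2184, 1989 and 2399 CPM without (log2 change 0.36 ± 0.10, adjusted p = 0.02). hsp-4, the endoplasmic reticulum BiP, had 771, 826 and 825 CPM with heat and 432, 450.2 and 482 CPM without (log2 change 0.83 ± 0.14, adjusted p = 0.000816). The mitochondrial hsp-6 had 1007, 1041 and 1022 CPM with heat and 897, 779 and 881 CPM without, close to the threshold (log2 change 0.26 ± 0.09, adjusted p = 0.0492). Neither hsp-1 nor hsp-6 passed under scaling by library size alone. hsp-1 also lost its call without heated replicate 1 or without unheated replicate 1 or 2, and hsp-6 without any single library. Over the 12 fits that each leave out 1 library, hsp-1 changed by 0.29 to 0.40 and hsp-6 by 0.20 to 0.28. Ranges given beside other lost calls are likewise over all 12 fits. The second BiP gene, hsp-3, did not pass (0.08 ± 0.12), and F11F1.1, a less studied family member and the 1 that fell, stood at 15.1, 10.3 and 10.8 CPM in heated mutants, against 25.9, 29.9 and 22.1 CPM in unheated ones (log2 change −1.1 ± 0.18, adjusted p = 0.000521).

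**Figure D2:**
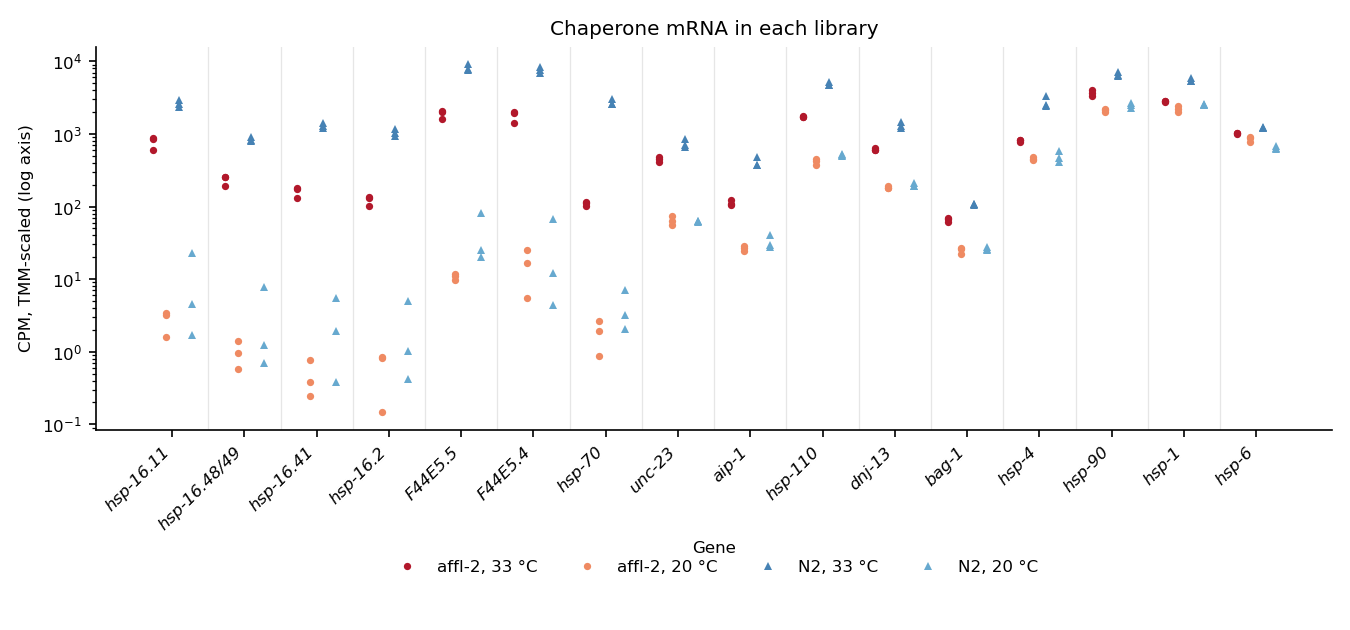
CPM (log axis) of chaperone and chaperone-linked genes in every library, with affl-2 at 33 °C and 20 °C as red and orange circles and N2 at 33 °C and 20 °C as dark and light blue triangles, 3 libraries each. Heated affl-2 libraries lie above unheated affl-2 libraries for all genes shown, and below heated N2 libraries.

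HSP90 and its cochaperones mostly rose: 10 of 14 tested rose (71.4%, against 10.6% of all genes) and none fell. With library size alone 9 rose, and in the fit of the affl-2 libraries alone 8 rose. hsp-90, the cytosolic HSP90 itself, had 3656, 3347 and 4004 CPM in heated mutants and 2222, 2019 and 2166 CPM in unheated ones (log2 change 0.78 ± 0.11, adjusted p = 0.00018). The BAG-domain gene unc-23, needed for attachment of body wall muscle, rose most, to 451, 414 and 489 CPM in heated mutants, against 56.3, 63.6 and 73.6 CPM in unheated ones (log2 change 2.81 ± 0.13, adjusted p = 6.79e-09). The second BAG gene, bag-1, had 68, 70.5 and 62.2 CPM with heat and 26.5, 26.3 and 22.1 CPM without (log2 change 1.42 ± 0.10, adjusted p = 3.98e-07). The other 7 that rose did so by 0.39 to 0.79: the p23 gene daf-41, the kinase cochaperone cdc-37, the myosin chaperone unc-45, the HSP70-interacting hip-1, the HSP90 ATPase activator ahsa-1, the HSP70-HSP90 adaptor sti-1 and the immunophilin fkb-6. hsp-75, a gene of the mitochondrial HSP90 type, the endoplasmic reticulum HSP90 enpl-1, the phosphatase pph-5 and the ubiquitin ligase chn-1 did not pass, with changes from −0.05 to 0.14.

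Of 29 dnj genes, which encode the J-domain (HSP40) partners of HSP70, 5 rose and 2 fell, near the 10.6 and 10.8% of all genes. dnj-13, a cytosolic partner of HSP70 in disaggregation, reached 598, 592 and 639.5 CPM in heated mutants, against 183, 179.9 and 191 CPM in unheated ones (log2 change 1.72 ± 0.10, adjusted p = 4.56e-08), and dnj-12 averaged 583 ± 23.6 CPM with heat and 298 ± 10.8 CPM without (SD, n = 3 each; log2 change 0.97 ± 0.09, adjusted p = 6.1e-06). dnj-16, dnj-19 and dnj-24 rose by 0.47 ± 0.11, 0.55 ± 0.09 and 0.46 ± 0.15, and the 2 that fell were dnj-10 and dnj-20, with changes of −0.27 ± 0.08 and −0.38 ± 0.12. Leaving out single libraries ended the call of dnj-24 in 8 of 12 cases and that of dnj-10 and of dnj-20 in 4 cases each (0.32 to 0.58, −0.33 to −0.25 and −0.50 to −0.30). All 8 subunits of the CCT chaperonin, which folds actin and tubulin, rose by small amounts, from 0.35 (cct-7, call lost without unheated affl-2 replicate 1) to 0.57 (cct-6). Their summed level was 4003, 4128 and 4263 CPM in heated and 2906, 2899 and 3253 CPM in unheated mutants. With library size alone as the scaling 7 of the 8 passed and the median was 0.30, against 0.44 with TMM. None of 6 prefoldin genes, whose product delivers actin and tubulin to CCT, passed (median 0.13). At an unadjusted p under 0.05 there were 2 in edgeR's test, and DESeq2's Wald test called none.

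Single genes of protein disposal rose strongly. aip-1, which encodes a zinc-finger protein that helps the proteasome degrade damaged proteins, had 108, 103.69 and 122 CPM in heated mutants and 28.5, 24.6 and 26.5 CPM in unheated ones (log2 change 2.07 ± 0.15, adjusted p = 5.64e-07). Of 31 proteasome subunit genes 3 rose (9.68%, near the 10.6% of all genes) and none fell, with 1 risen under library size alone. Only rpn-3 of the 3 rose by more than 2-fold, to 577, 607 and 613 CPM with heat, against 259, 222 and 256 CPM without (log2 change 1.28 ± 0.09, adjusted p = 5.79e-07). rpn-3 starts 443 bases from hsp-110 and is read in the opposite direction. The other 2, rpn-10 and rpt-2, rose by 0.24 and 0.26, and lost the call without 11 and 12 of the 12 libraries left out one at a time (0.21 to 0.24 and 0.20 to 0.28). The polyubiquitin gene ubq-1 rose by 0.60 ± 0.10 and the ubiquitin-activating enzyme uba-1 by 0.60 ± 0.09. In the list of 20 ubiquitin and CDC-48 genes 4 rose (20.0%, against 10.6% of all genes) and 1 fell (5.0%, against 10.8%). The last of the 4 was the conjugating enzyme gene let-70, and the gene that fell was the cullin gene cul-6. The last pair lost the call without 4 and 8 of the 12 libraries (0.29 to 0.41 and −0.65 to −0.43).

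Of 25 autophagy genes 12 rose (48.0%, against 10.6% of all genes) and 1 fell (4.0%, against 10.8%). The one that fell was the protease gene atg-4.2, whose call was lost without 8 of the 12 libraries (−0.51 to −0.36). Scaling by library size alone gave 9 risen and 3 fallen. sqst-1, the p62 adaptor that carries ubiquitinated cargo to autophagosomes, had 191, 171 and 219 CPM in heated mutants and 77.2, 101 and 101.51 CPM in unheated ones (log2 change 1.06 ± 0.14, adjusted p = 0.000136). bec-1, the Beclin of the lipid kinase complex that starts autophagosomes, had 40.4, 42.6 and 45.1 CPM with heat and 20.7, 22.6 and 21.1 CPM without (log2 change 0.99 ± 0.10, adjusted p = 9.52e-06). The LC3 and GABARAP genes lgg-2 and lgg-1 rose by 0.41 ± 0.09 and 0.53 ± 0.12, and the scaffold gene epg-7 by 0.92 ± 0.09.

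Genes of the organelle stress pathways were tested as lists of 20 and 15. Of the 20 endoplasmic reticulum folding genes 3 rose (15.0%, against 10.6% of all genes): hsp-4, ero-1, which oxidises disulfide isomerases (0.26, a call lost without any 1 of the 12 libraries, at 0.17 to 0.28), and pek-1, the PERK kinase that slows translation under stress. pek-1 had 229, 221 and 244 CPM in heated mutants and 57.4, 60.8 and 57.8 CPM in unheated ones (log2 change 1.98 ± 0.09, adjusted p = 4.73e-09). In the mitochondrial unfolded protein response list 2 of 15 rose (13.3%) and 3 fell (20.0%, against 10.8% of all genes), with none risen under library size alone. Those that fell include atfs-1, the transcription factor that starts that response (−0.37 ± 0.09), and haf-1, a peptide exporter of the mitochondrial inner membrane (−0.84 ± 0.17). The other was dnj-10, and the 2 that rose were hsp-6 and the import channel gene timm-23, which lost its call without 3 of the 12 libraries (0.27 to 0.40). tps-1, a trehalose synthase gene, had 120.4, 122 and 118 CPM in heated mutants and 53.7, 56.1 and 57.4 CPM in unheated ones (log2 change 1.11 ± 0.09, adjusted p = 1.52e-06). Trehalose is a sugar that stabilises proteins.

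Regulatory genes were divided. Of 23 bZIP transcription factor genes 8 rose (34.8%, against 10.6% of all genes) and 1, zip-12, fell. cebp-1, a C/EBP factor of axon regeneration and stress, had 143, 145 and 159.6 CPM in heated mutants and 21.3, 27.2 and 30.6 CPM in unheated ones (log2 change 2.50 ± 0.14, adjusted p = 4.32e-08). zip-10, known from the response to cold, had 15.5, 13.7 and 20.4 CPM with heat and 4.51, 5.78 and 3.39 CPM without (log2 change 1.86 ± 0.29, adjusted p = 0.00064). fos-1 and jun-1, which encode the AP-1 pair, rose by 0.96 ± 0.12 and 0.57 ± 0.13, and atf-7, a target of the p38 immune pathway, by 0.84 ± 0.10. Of the 20 stress regulators listed, pqm-1 rose to 64, 52.7 and 69.3 CPM in heated mutants, against 28.8, 35.8 and 31.9 CPM in unheated ones (log2 change 0.95 ± 0.15, adjusted p = 0.000521), and skn-1, the Nrf factor, rose by 0.46 ± 0.10. ddl-2, which encodes a component of an inhibitory complex on HSF-1, rose by 0.73 ± 0.13, and atf-7 is in this list as well. elt-3, a GATA factor of the epidermis, was the second to fall besides atfs-1 (−0.60 ± 0.14).

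Nuclear hormone receptors, a family greatly expanded in nematodes and including regulators of fat and vitamin B12 metabolism, fell in the largest number. Of 269 genes named nhr, 196 were tested, and 90 of these fell (45.9%, against 10.8% of all genes) and 16 rose (8.16%). In N2 the median change of these receptors was −0.51, and the median of the interaction was −0.01. The median change in affl-2 over the 196 was −0.56, against 0.03 over all genes, and −0.70 with library size alone, when 109 fell and 15 rose. Summed over the family, levels were 1997, 1879.7 and 2045 CPM in heated and 2376, 2663 and 2525 CPM in unheated mutants, so the groups did not overlap. The fall was found on and off chromosome V, which holds most of the family: 61 of 126 receptors fell there (48.4%, against 14.3% of all genes tested on that chromosome), and 29 of 70 elsewhere (41.4%). Among the 117 receptors at 5 CPM or more without heat, 62 fell (53%), against 11.5% of all genes at that level.

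**Figure D3:**
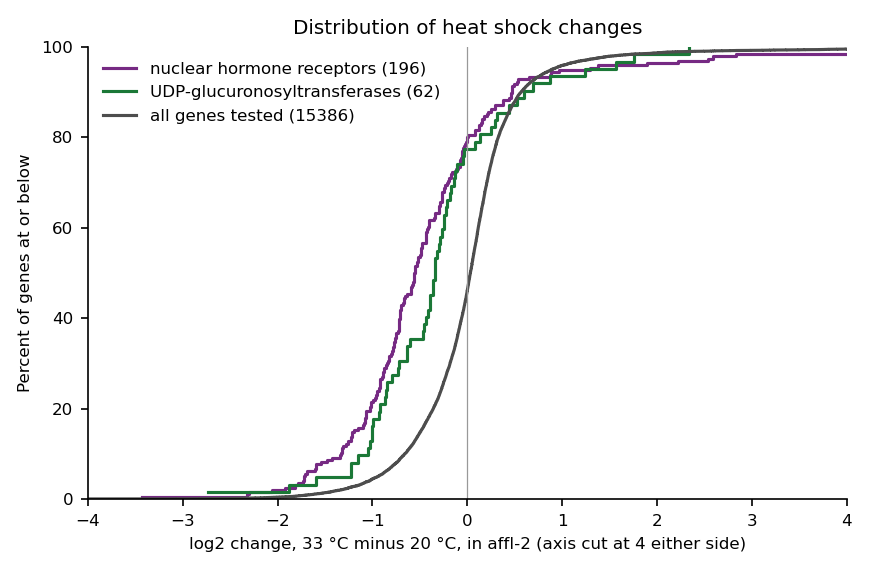
Cumulative distribution of the log2 change with heat in affl-2 mutants for 196 nuclear hormone receptors, 62 UDP-glucuronosyltransferases and all 15386 genes tested; the axis is cut at 4 on either side. Both family curves lie left of the curve of all genes over most of their range, with medians of −0.56 and −0.34, against 0.03.

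nhr-114, which protects the germline from dietary deficits, had 22.8, 18.3 and 24.5 CPM in heated mutants and 95.1, 129 and 104.38 CPM in unheated ones (log2 change −2.32 ± 0.14, adjusted p = 8.53e-08). nhr-68, part of the vitamin B12 circuit of propionate breakdown, had 44.7, 34.2 and 47.2 CPM with heat and 69.4, 76.1 and 79.3 CPM without (log2 change −0.83 ± 0.12, adjusted p = 0.000286). nhr-65 had 3.11, 2.89 and 3.3 CPM with heat and 12.756, 14.3 and 11.8 CPM without (log2 change −2.06 ± 0.16, adjusted p = 1.26e-06). These 3 genes were picked by their values or after these were seen, so their lack of overlap between the groups adds no support. nhr-66, a partner of the fat regulator NHR-49, changed by −0.72 ± 0.12, while nhr-49 itself (0.22 ± 0.09) and nhr-80 (−0.08 ± 0.13) did not pass. The few that rose include nhr-17, with 27.9, 23 and 23.9 CPM in heated and 8.68, 9.57 and 12.336 CPM in unheated mutants (log2 change 1.29 ± 0.13, adjusted p = 1.53e-05), and nhr-241, nhr-291 and nhr-247, which were near 0 without heat. nhr-247 had 1.64, 1.98 and 1.45 CPM with heat and 0, 0.0474 and 0 CPM without, and follows nhr-291 on the same strand of chromosome V with 2428 bases between them.

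UDP-glucuronosyltransferases, ABC transporters and cytochromes P450, genes of detoxification and transport, fell in shares above the 10.8% of all genes. Of 62 UDP-glucuronosyltransferases, which attach sugars to xenobiotics, 24 fell (38.7%) and 6 rose. ugt-16 had 5.56, 4.82 and 7.08 CPM in heated mutants and 16.103, 27.4 and 21 CPM in unheated ones (log2 change −1.88 ± 0.19, adjusted p = 1.19e-05). Against the family trend ugt-8, ugt-14 and ugt-13, 3 neighbours within V:4903930-4911399, all rose, ugt-13 to 33.9, 31.7 and 39.9 CPM in heated mutants, against 8.73, 11.7 and 10.7 CPM in unheated ones (log2 change 1.76 ± 0.15, adjusted p = 2.69e-06). Of 49 ABC transporters 17 fell (34.7%) and 6 rose. The P-glycoprotein gene pgp-9 had 63, 37.5 and 49.9 CPM with heat and 95.8, 135 and 97.1 CPM without (log2 change −1.12 ± 0.17, adjusted p = 0.0004), and pmp-5, of the peroxisomal type, 139.9, 111 and 148 CPM with heat and 245, 355 and 296 CPM without (log2 change −1.17 ± 0.17, adjusted p = 0.000225). haf-2, which ends 930 bases upstream of hsp-4, rose instead (1.14 ± 0.11). Cytochrome P450 genes, which oxidise xenobiotics, fell in 11 of 55 cases (20.0%) and in 18 under library size alone, among them cyp-13A2 (−1.81 ± 0.18), and rose in 1, cyp-36A1 (1.09 ± 0.17). Of 38 glutathione transferases 4 fell (10.5%) and 3 rose, with 8 and 1 under library size alone, and gst-4, a widely used reporter of oxidative stress, was at −0.60 ± 0.16 (call lost without unheated affl-2 replicate 2, range −0.77 to −0.50).

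Genes of fatty acid synthesis fell in 5 of 20 cases and rose in 2. sbp-1, the SREBP factor that activates lipid synthesis genes, had 40.3, 35 and 39.9 CPM in heated mutants and 78.3, 86.5 and 85.7 CPM in unheated ones (log2 change −1.12 ± 0.10, adjusted p = 2.76e-06). elo-5 and elo-6, which elongate branched-chain fatty acids, fell with it. elo-5 had 70.7, 41.1 and 85.8 CPM with heat and 140.1, 209 and 189 CPM without (log2 change −1.45 ± 0.24, adjusted p = 0.000933), and elo-6 110.5, 71.3 and 127 CPM with heat and 199, 268 and 267 CPM without (log2 change −1.25 ± 0.18, adjusted p = 0.000276). elo-2 and elo-3 were the other two that fell, and the desaturase gene fat-6 and the elongase gene elo-4 rose, by 0.72 ± 0.20 and 0.63 ± 0.21. The calls of elo-3, fat-6 and elo-4 were lost without 7, 4 and 9 of the 12 libraries (−0.44 to −0.22, 0.53 to 0.88 and 0.45 to 0.88). Of 67 genes of fat breakdown 12 fell (17.9%, against 10.8% of all genes) and 7 rose (10.4%, near the 10.6% of all genes). With library size alone 23 fell and 4 rose. Of the 12 that fell, 5 were peroxisomal acyl-CoA oxidases (acox-1.1, acox-1.3, acox-1.4, acox-1.5 and acox-3). Of these acox-1.5 lost its call without 7 of the 12 libraries (−0.64 to −0.30). The carnitine acyltransferase genes cpt-1 and cpt-4 and the acyl-CoA synthetase gene acs-2 were among those that rose, while cpt-5 fell.

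The summed levels of muscle and pharyngeal markers were higher in every heated than in every unheated mutant library, and their part in the results above was not tested. Of 22 intestinal markers 5 fell (22.7%, against 10.8% of all genes) and none rose. The fallen markers were the GATA factor elt-2 (−0.53 ± 0.14), the peptide transporter pept-1, the phosphatase pho-1, the elongase elo-2 and the metallothionein mtl-2. With library size alone 12 fell. Their summed level was 5591, 4468 and 5993 CPM in heated and 5731, 6394 and 6897 CPM in unheated mutants, which overlap. pept-1 had 161, 121 and 142 CPM in heated mutants and 272, 306 and 308 CPM in unheated ones (log2 change −1.06 ± 0.12, adjusted p = 4.2e-05). Of 27 muscle sarcomere genes 15 rose (55.6%, against 10.6% of all genes) and none fell. The counts were 8 and 1 under library size alone, and 7 rose in the fit of the 6 affl-2 libraries. The body wall myosin unc-54 had 8018, 8629 and 5917 CPM with heat and 3733, 3575 and 3916 CPM without (log2 change 1.01 ± 0.16, adjusted p = 0.000521), and its partner myo-3 1019.8, 1074 and 759 CPM with heat and 432, 444 and 502 CPM without (log2 change 1.05 ± 0.13, adjusted p = 7.97e-05). The type IV collagens of basement membranes emb-9 and let-2 rose by 0.73 ± 0.13 and 0.65 ± 0.13. The summed levels of pharyngeal markers were 1507, 1451 and 1356 CPM in heated and 1075, 1072 and 1099 CPM in unheated mutants. Of 28 germline and oocyte markers rad-51 rose and the yolk receptor gene rme-2 fell, and of 80 sperm genes 7 rose (8.75%, against 10.6% of all genes) and none fell. Fallen germline markers numbered 8 in DESeq2's Wald test, 5 in the fit of the 6 affl-2 libraries and 4 with library size alone, and 1 sperm gene rose in each of the last 2 settings. The summed levels of both lists overlapped between the groups. Of 6 vitellogenin genes, which encode yolk proteins, vit-1 and vit-3 fell (log2 changes −0.86 and −0.66), and 4 of the 6 fell under library size alone. The calls of rad-51, rme-2 and vit-3 were lost without 8, 7 and 4 of the 12 libraries (0.19 to 0.42, −0.98 to −0.51 and −0.84 to −0.50).

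Of 76 cytosolic ribosomal protein genes 33 rose in the mutant (43.4%, against 10.6% of all genes) and none fell. The rises were at most 0.48 (rps-2, 0.38 to 0.56 with single libraries left out and its call lost without 1, unheated affl-2 replicate 1). Their summed level was 80400.4, 66578 and 89534 CPM in heated mutants, against 57469, 61718 and 62492 CPM in unheated ones. The count was 4 with library size alone and 36 in DESeq2's Wald test. It was 0 of 75 when edgeR was fitted to only the 6 affl-2 libraries, with 38 at an unadjusted p under 0.05. The heated and unheated sums of the family did not overlap with TMM scaling, but do so when scaled by library size alone. Of 28 genes of synapses and transmitters 5 rose (17.9%, against 10.6% of all genes) and 7 fell (25%, against 10.8%). With library size alone 3 rose and 9 fell. Changes in this list ran from −1.71 to 1.28, and the genes described here are from those that fell. unc-47, the GABA transporter of synaptic vesicles, had 0.8, 0.482 and 0.727 CPM with heat and 1.89, 1.89 and 2.87 CPM without (log2 change −1.71 ± 0.31, adjusted p = 0.00128), and unc-18, a syntaxin-binding protein of vesicle release, 50.0, 49.1 and 54.5 CPM with heat and 75.4, 81.1 and 88.6 CPM without (log2 change −0.67 ± 0.09, adjusted p = 0.000173).

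Other families of the cell's basic machinery moved by small amounts. Genes of nucleolar ribosome biogenesis rose in 7 of 27 cases (25.9%, against 10.6% of all genes) and aminoacyl-tRNA synthetases in 7 of 32 (21.9%), with 1 fallen, ears-2. With library size alone these counts were 0 and 1, and in a fit of the 6 affl-2 libraries also 0 and 1. Translation factors rose in 7 of 38 cases (18.4%) and in none under either of these alternatives. The 7 include eef-1A.1, the elongation factor that brings tRNA to the ribosome, with 11533, 9771 and 12506 CPM in heated and 8411, 8067 and 8981 CPM in unheated mutants (log2 change 0.41 ± 0.12, adjusted p = 0.0268). Of 20 genes of transcription elongation 3 rose, affl-1, spt-4 (0.38 ± 0.10) and the P-TEFb kinase cdk-9 (0.28 ± 0.09), and none fell; 1 rose under each alternative. Of 44 nuclear genes of oxidative phosphorylation 1 rose, the assembly factor cox-10. Single libraries ended the calls of eef-1A.1, spt-4, cdk-9 and cox-10 in 4, 3, 9 and 6 of 12 cases (0.33 to 0.47, 0.33 to 0.44, 0.22 to 0.32 and 0.26 to 0.39).

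Immune and cuticle families held genes of both directions, beside 10.6% of all genes tested that rose and 10.8% that fell. C-type lectins fell in 25 of 125 cases (20.0%) and rose in 12, against 45 and 10 under library size alone, with clec-1 at 20.4, 16 and 20.4 CPM in heated mutants and 73.1, 59.2 and 66.4 CPM in unheated ones (log2 change −1.81 ± 0.13, adjusted p = 5.79e-07). Of 22 pals genes, a family known from the response to intracellular pathogens, 8 fell (36.4%) and 3 rose. The paired regulators pals-22 and pals-25 both fell (log2 changes −0.69 ± 0.22 and −1.26 ± 0.32), with calls lost without 6 and 1 of the 12 libraries (−0.79 to −0.57 and −1.5 to −0.84). Astacin proteases fell in 8 of 30 cases (26.7%) and rose in 1, nas-24, which lost its call without 3 of the 12 libraries (1.26 to 2.24). Among 132 col collagen genes of the cuticle 12 rose (9.09%, against 10.6% of all genes) and 5 fell. Among 25 molting genes 3 rose, a share also near that of all genes, and none fell. The summed levels of both lists overlapped between heated and unheated mutants. Among the molting genes that rose was lrp-1, the megalin receptor that takes up cholesterol for molting, with 386, 458 and 412 CPM in heated and 171, 118 and 237 CPM in unheated mutants (log2 change 1.26 ± 0.24, adjusted p = 0.00279). ptr-22, a patched-related gene, rose more steeply than these, to 16.7, 21 and 20.0 CPM in heated mutants, against 0.922, 1.42 and 2.53 CPM in unheated ones (log2 change 3.56 ± 0.30, adjusted p = 3.32e-06).

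Many of the large rises were of genes almost silent without heat. Of the 477 genes that rose by more than 2-fold, 249 (52.2%) stood below 1 CPM in unheated mutants, as did 10.3% of all genes tested, and a gene at that level could enter the test through its heated libraries alone. Their median level was 3.88 CPM in heated and 0.894 CPM in unheated mutants. The 596 genes that fell by more than 2-fold had a median of 1.82 CPM in heated and 5.05 CPM in unheated mutants, and 59 of them (9.9%) stood below 1 CPM unheated. Pseudogenes made up 15.3% of the risen, 8.89% of the fallen and 3.95% of all genes tested.

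**Figure D4:**
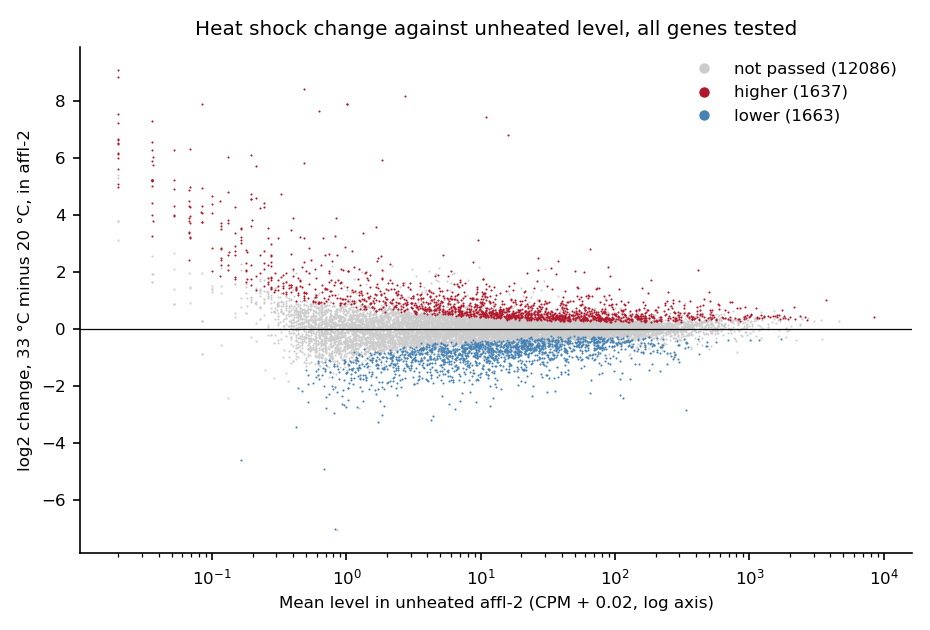
Log2 change with heat in affl-2 mutants against the mean CPM in unheated mutants (log axis, 0.02 CPM added), one point per gene tested, coloured by whether it rose (1637), fell (1663) or did not pass (12086). Of the 109 genes that rose by more than 3 by fitted value, 102 were below 1 CPM without heat, and the other 7 include hsp-16.11, hsp-70, F44E5.4 and F44E5.5.

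Among genes outside the chaperone families with the highest changes, Y53F4B.8 had 10.6, 14.2 and 12.605 CPM in heated mutants and 0.243, 0.142 and 0.143 CPM in unheated ones (log2 change 6.10 ± 0.25, adjusted p = 2.24e-09). It lies within a run of 4 consecutive tested genes on chromosome II that all rose by more than 2-fold, Y53F4B.43, Y53F4B.7, Y53F4B.8 and Y53F4B.10 (II:14988471-15003510). Y53F4B.43, Y53F4B.7 and Y53F4B.10 had 4, 3 and 3 reads over the unheated mutant libraries, so they could enter the test through heated libraries alone. R11A5.3 had 30.4, 21.9 and 27.2 CPM with heat and 0.437, 0.379 and 0.574 CPM without (log2 change 5.82 ± 0.23, adjusted p = 2.01e-09), and ZK1240.1 10.3, 8.97 and 11.7 CPM with heat and 0.243, 0.237 and 0.0956 CPM without (log2 change 5.71 ± 0.30, adjusted p = 2.75e-08). F59H6.5, which had no match in the annotation used, had 1050 reads in heated and 4 in unheated libraries, a ratio of 257.5 with a 95% exact interval of 100.3 to 947 for counting error. The chemoreceptor gene srw-1 had 73, 70 and 71 reads in the heated libraries and 0 in each unheated library, at least 23.3-fold higher against a floor of 3 reads a library. F58F9.6 had 43, 72 and 63 reads with heat and 0 without, at least 19.4-fold higher.

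Risen genes often had a risen neighbour. Of 469 genes that rose by more than 2-fold and have a position, 81 (17.3%) had a nearest tested neighbour that did too, against 2.99% of all 15338 genes with a position. The same share among genes that fell by more than 2-fold was 82 of 593 (13.8%), against 3.77%. Only tested genes are counted, and a gene almost silent without heat could enter the test through its heated libraries alone. Silent neighbours that heat did not raise are then left out, so the shares for risen genes do not measure how often all neighbours rise together. Of those 81 risen genes 18 overlap the neighbour, and the median gap was 310 bases. Since the library kit keeps no strand, reads of overlapping genes cannot be told apart. Pairs of named genes and partners on the other strand that overlap and passed in the same direction were hsp-90 with C47E8.4, hip-1 with T12D8.9, C37H5.14 with C37H5.5, fkb-6 with clec-264, skn-1 with clec-178, rhy-1 with W07A12.8 and fos-1 with rpt-2. Of 1307 chemoreceptor genes listed, 93 passed the filter, and 28 of these rose and 4 fell. A chemoreceptor gene silent without heat could be tested only if heat or genotype raised it, so these counts say nothing of the family as a whole.

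The largest falls included genes of digestion, transport and metabolism. asp-13, an aspartyl protease gene, had 48.8, 36.8 and 54.4 CPM in heated mutants and 324, 355 and 324 CPM in unheated ones (log2 change −2.84 ± 0.17, adjusted p = 8.53e-08). acp-6, an acid phosphatase gene, had 28.5, 14.1 and 20.5 CPM with heat and 135, 106 and 103.9 CPM without (log2 change −2.45 ± 0.33, adjusted p = 0.000347). swt-3, of the SWEET sugar transporter family, had 11, 15.3 and 14.4 CPM with heat and 45.5, 78.7 and 69.5 CPM without (log2 change −2.25 ± 0.18, adjusted p = 1.42e-06). Genes were named among the lowest changes only if heated and unheated libraries did not overlap, so the lack of overlap adds no support. The sulfatase gene sul-3, the acyltransferase gene rhy-1, a regulator of the hypoxia factor HIF-1, and the secreted astacin protease gene nas-27 also fell (log2 changes −2.22 ± 0.17, −2.11 ± 0.17 and −2.53 ± 0.45). sams-1, which makes the methyl donor S-adenosylmethionine, had 276, 167 and 243 CPM with heat and 408, 405 and 443 CPM without (log2 change −0.87 ± 0.15, adjusted p = 0.00101). sec-61.A, the channel of the endoplasmic reticulum translocon, had 892, 910.3 and 912 CPM with heat and 1072, 1105 and 1369 CPM without (log2 change −0.39 ± 0.10, adjusted p = 0.0156). That call was lost without heated affl-2 replicate 1 (−0.37), with a range of −0.48 to −0.30 over all 12 libraries left out one at a time. fipr-11 had 0 reads in the heated and 50 in the unheated libraries, at least 5.66-fold lower with heat against the floor of 3 reads a library.

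N2 responded to the same heat shock with 1465 genes (9.52%) higher and 1849 (12%) lower. The 2 heat contrasts share no library, but share the fitted spread of each gene. Of the genes that rose in affl-2, 915 also rose in N2, 55.9% of the mutant's and 62.5% of the N2 list. Of the genes that fell, 1153 also fell in N2, 69.3% of the mutant's and 62.4% of the N2 list. Passing in the mutant alone does not show a difference: 721 genes rose in the mutant and did not pass in N2, yet the interaction passed for 2 of these, C37H5.14 and F28B12.6, and for 11 of the 499 that fell in the mutant and did not pass in N2. Over all genes the interaction passed for 110 (0.715%), 103 of them below 0 (0.669% of all genes) and 7 above (0.0455%). DESeq2's Wald test gave 213 for the same contrast, 22 of them above 0.

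**Figure D5:**
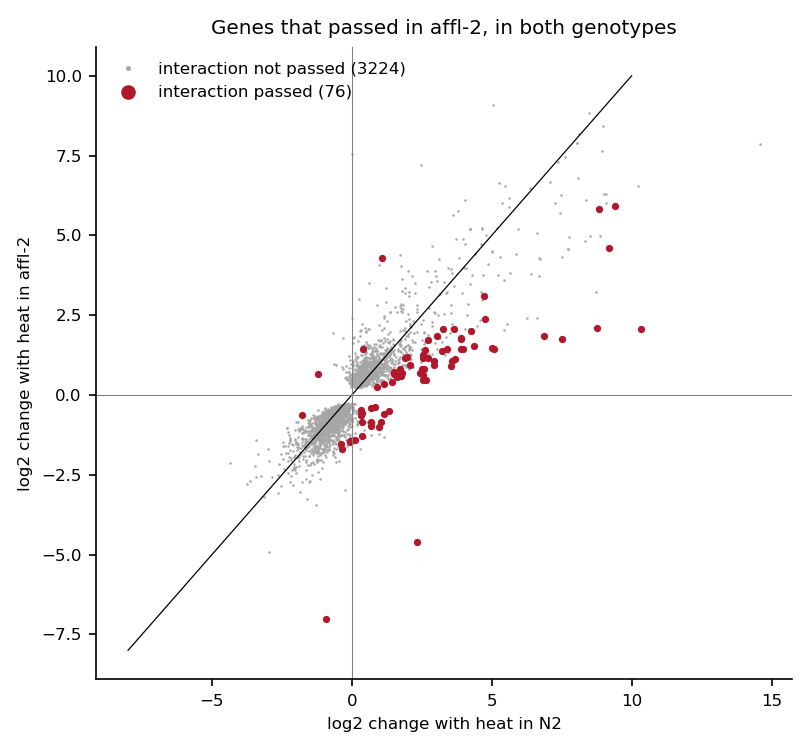
Log2 change with heat in affl-2 (y) against that in N2 (x) for the 3300 genes that passed in affl-2, with the line of equal change; red points are the 76 of them whose interaction passed. Most of the red points lie below the line, at a smaller rise in affl-2 than in N2 or at a fall in affl-2.

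Where the genotypes differed among risen genes, the mutant mostly rose less. The interaction passed for 54 genes that rose in affl-2, with a median rise of 1.22 in affl-2 and 2.83 in N2. hsp-70 reached 111, 102.24 and 117 CPM in heated mutants and 2553, 2610.3 and 3068 CPM in heated N2 (interaction −3.49 ± 0.56, adjusted p = 0.0131), a call lost without 3 of the 12 libraries left out one at a time (−4.12 to −3.11). hsp-110 rose by 2.06 ± 0.10 in affl-2 and by 3.26 ± 0.11 in N2 (interaction −1.2 ± 0.14, adjusted p = 0.000364). hsp-4 rose by 0.83 ± 0.14 in affl-2 and 2.50 ± 0.15 in N2 (interaction −1.67 ± 0.20, adjusted p = 0.00044). The interactions of dnj-13, hsp-1, hsp-6, aip-1, sqst-1 and ugt-13 also passed below 0, that of hsp-1 being lost without 1 and that of hsp-6 without 5 of the 12 libraries (−0.85 to −0.73 and −0.72 to −0.62). Those of hsp-90, unc-23, bag-1 and pek-1 did not, nor did those of the 8 CCT genes, although a missed threshold does not show an equal response. For hsp-90 the interaction was −0.64 ± 0.15 (adjusted p = 0.087), and for the CCT subunit gene cct-6 it was 0.05 ± 0.13.

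Genes that the mutant moved further than N2, or in the other direction, were few in the fit used here. The count of interactions that passed above 0 varied with the fit. It was 7 here, 22 in DESeq2's Wald test and 38 under 1 of the replicate blocks described below. R03D7.2 rose in the mutant, to 24.4, 21.3 and 17.9 CPM in heated animals, against 15.9, 11 and 13.9 CPM in unheated ones (log2 change 0.64 ± 0.17, adjusted p = 0.0173), and fell in N2, to 24.2, 22.5 and 16.435 CPM in heated animals, against 42.9, 55.1 and 47.7 CPM in unheated ones (interaction 1.85 ± 0.25, adjusted p = 0.00114). The heated levels of the genotypes overlapped and the unheated levels did not. Its rise in the mutant lost the call without heated replicate 1 (0.53) or unheated replicate 2 (0.51), with a range of 0.51 to 0.75 over all 12 libraries left out one at a time. C37H5.14 rose by 1.45 ± 0.14 in affl-2 and did not pass in N2, at 0.38 ± 0.14 (interaction 1.07 ± 0.20, adjusted p = 0.0161), a call lost without 5 of the 12 libraries (0.98 to 1.15). It overlaps C37H5.5 on the other strand, which rose too, and their reads cannot be told apart. F28B12.6 had 2.98, 2.32 and 2.52 CPM in heated and 0.097, 0.142 and 0.143 CPM in unheated mutants (interaction 3.20 ± 0.65, adjusted p = 0.0341), a call lost without 11 of the 12 libraries (2.38 to 3.55). In the other direction 11 genes fell in affl-2 and rose in N2, chosen here after their values were seen. daf-7, the TGF-beta ligand that holds back dauer entry, had 2.62, 2.7 and 3.78 CPM in heated and 4.37, 5.87 and 7.51 CPM in unheated mutants (log2 change −0.96 ± 0.23, adjusted p = 0.00755). In N2 it had 13.2, 11.6 and 15.3 CPM in heated and 7.83, 9.96 and 6.99 CPM in unheated animals (interaction −1.66 ± 0.31, adjusted p = 0.017), a call lost without 3 of the 12 libraries (−1.89 to −1.5). ugt-63 also fell in affl-2 and rose in N2, with −1.01 in affl-2 and 0.97 in N2 (interaction −1.97 ± 0.31, adjusted p = 0.00466). The chemoreceptor gene srt-42, which starts 1584 bases past hsp-16.41 on the same strand, had 0 reads in heated and 9 in unheated mutants, while N2 averaged 1.83 CPM with heat and 0.364 CPM without. dgat-2, a gene of triglyceride synthesis, fell in the mutant to 7.82, 4.54 and 9.02 CPM with heat, against 13.4, 22.4 and 21.1 CPM without (log2 change −1.41 ± 0.23, adjusted p = 0.000553), and did not pass in N2 (0.10 ± 0.21, interaction −1.51 ± 0.31, adjusted p = 0.0402). That interaction was lost without 9 of the 12 libraries (−1.76 to −1.32).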

How the data were processed

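Poly(A) RNA of whole L4 animals was made into libraries with NEBNext Ultra II, which keeps no strand, with fragments of about 200 nt, and sequenced as single reads of 50 nt, per the labels' protocols. The authors deposited, for each library, a kallisto table of estimated counts and TPM for 35862 transcripts; the submitters' processing notes name bcl2fastq 1.8.4, kallisto without a version, and WBcel235. Here the deposited estimated counts and the deposited TPM were summed over transcripts by gene sequence name into 22010 genes, and the summed counts were rounded to whole numbers. Symbols, positions and biotypes came from Ensembl release 115, which held 21842 of the genes, leaving 168 unmatched.

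Genes were tested with edgeR 4.0.16 (limma 3.58.1, R 4.3.3) by robust quasi-likelihood fits of 4 group means over all 12 libraries, with TMM scaling and filterByExpr at a minimum count of 10. This kept 15386 genes, set aside 6624, and left 8 residual degrees of freedom, with a common biological coefficient of variation of 0.147. The threshold was a Benjamini-Hochberg adjusted p of 0.05. The code was tested on simulated data. Alternatives were library size scaling, DESeq2 1.42.0 size factors and Wald test, other filters, the 6 libraries compared alone, replicate blocks, a test beyond 2-fold and leaving out each library.

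The gene lists, 55 in number, and the comparison were chosen with earlier results of these data known. Some lists were corrected after their values were seen: trap-1, a translocon subunit that had been listed with the HSP90 genes by its name, was taken out (log2 change −0.18, not passed), and the name pattern for chemoreceptors was narrowed to receptor families. In all, 10 listed names matched no gene. Genes were named by rule from the heat contrast in affl-2: the 20 highest and 20 lowest changes among passing genes averaging 1 or more in log2 CPM with groups that did not overlap; the 10 largest gains and losses in mean CPM; and genes at 0 counts without heat and at least 10 in every heated library. The 10 lowest interactions among genes changed in affl-2, the interactions that passed above 0, affl-2, affl-1, hsf-1, the hsp-16, HSP70 and HSP90 lists and up to 5 members of each other list were added. Not all of these are described, and genes outside the rule were chosen after their values were seen. Intervals and floors cover counting error only. The total of estimated counts per library, between 17973106 and 22657705, sets the precision for low genes.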

Additional observations from a re-analysis of the deposited data

Results flagged for a closer look

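The following genes stood out because the heat shock effect in affl-2 differed from that in N2 by edgeR's test of the interaction, at an adjusted p under 0.05. Each value is the log2 change with heat in affl-2 less that in N2, and no explanation was tested. Among chaperones and genes of protein disposal it was −3.49 for hsp-70, −1.2 for hsp-110, −1.01 for dnj-13, −1.67 for hsp-4, −0.78 for hsp-1, −0.65 for hsp-6, −1.57 for aip-1 and −1.88 for sqst-1, and all 8 rose in both genotypes. Among transporters and enzymes it was −2.13 for ugt-13 and −1.28 for ugt-8, which rose in both genotypes, −1.97 for ugt-63, which fell in affl-2 and rose in N2, and −1.2 for haf-1 and −1.51 for dgat-2, which fell in affl-2 and did not pass in N2. It was −3.01 for R11A5.3, which rose in both, and −1.66 for daf-7, which fell in affl-2 and rose in N2. It was −6.92 for srt-42 and −6.11 for fipr-11, which had 0 reads in heated mutants, so that these fitted values are no bound. Above 0 it was 1.07 for C37H5.14 and 3.20 for F28B12.6, which rose in affl-2 and did not pass in N2, and 1.85 for R03D7.2, which rose in affl-2 and fell in N2. The calls of haf-1, ugt-8 and fipr-11 were lost without 7, 8 and 9 of the 12 libraries left out one at a time, and that of srt-42 without 1.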

How the results depend on the processing

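The count of 3300 genes changed by heat in affl-2 stayed within 1.5 times under library size scaling (3561), DESeq2 size factors (3238), DESeq2's Wald test (3544), no filter (3106), a filter of 1 CPM in 3 libraries (3194) and a fit of the 6 libraries compared (2331), and lay between 2462 and 3277 with single libraries left out. A test for changes beyond 2-fold gave 265 genes in affl-2, 401 in N2 and 23 for the interaction. The interaction gave 80 to 128 genes with single libraries left out and 213 in DESeq2's Wald test. Genes higher in both genotypes numbered 566 with library size alone, 601 in fits of 6 libraries and 138 beyond 2-fold, and 740 to 877 with single libraries left out. Genes lower in both numbered 2087 with library size alone, 42 beyond 2-fold and 902 to 1177 with single libraries left out. In N2 leaving out single libraries gave 2290 to 3647 genes. The sum of hsp-16 kept its call in every setting run, at 7.75 to 8.31 with single libraries left out. Of 154 named genes that passed in affl-2, 17 lost the call with library size alone, 8 with DESeq2 size factors, 11 without a filter, 24 of 149 in the fit of 6 libraries and 5 to 23 with a single library left out, and none of them changed sign. The test for changes beyond 2-fold, which asks for more than a change, kept 46 of the 154 and lost 108. It lost 17 of the 20 named interactions that passed. A fit of 6 libraries gives no interaction.

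As a replicate block the number of the titles gave 3910 genes in affl-2. The pairing was not taken as established, because deviations of heated and unheated affl-2 libraries with the same number correlated at 0.12, −0.26 and 0.37. The labels and the deposited tables carry exchanged project numbers for unheated affl-2 replicates 1 and 2, and with these exchanged the correlations were 0.42, 0.27 and 0.37, beside 0.39, 0.36 and 0.43 for heated and unheated N2, and 0.09 at the lowest, for replicate 3 of the unheated genotypes. That block gave 4789 genes in affl-2 and 221 for the interaction, 38 of them above 0. Of the 20 named interactions that passed, 3 lost the call under the block of the titles (F28B12.6, dgat-2 and fipr-11), and no other named call was lost under either block. The exchange is within 1 group and leaves the fit without a block as it is.

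Genes that did not pass changed sign in places. With library size alone affl-2 stood at −0.066, enpl-1 at −0.07, hsp-3 at −0.06, hsp-75 at −0.016 and pph-5 at −0.005. With single libraries left out the ranges were −0.02 to 0.17 for affl-2, −0.16 to 0.013 for chn-1, −0.047 to 0.14 for enpl-1, −0.014 to 0.31 for hsp-17, −0.057 to 0.15 for hsp-3, −0.008 to 0.20 for hsp-75 and −0.16 to 0.017 for nhr-80. The cause was not tested. With 3 libraries a group, genes under 1 CPM without heat rest on few reads, and their fitted fold changes carry wide errors.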
